A study of Mus musculus with 16 samples.

Results

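The genes that carry the reception and transmission of hedgehog signals (10 genes) were followed across the cells of the embryonic mouse forebrain. They are the receptor gene Ptch1, the co-receptor genes Gas1, Boc and Cdon, the ligand-binding inhibitor gene Hhip, the transducer gene Smo, the cytoplasmic inhibitor gene Sufu and the transcription factor genes Gli1, Gli2 and Gli3. The 10 genes were taken by symbol from the 14498 genes of the deposited count matrix, and all 10 were present. Forebrain cells of wild-type CD1 embryos, an outbred mouse strain, were profiled at embryonic day 15.5 with a droplet single-cell kit. The 16 samples share strain, genotype, tissue and age and form 1 group with no treated or mutant arm. Their cells were deposited as 1 pooled matrix of unique molecular identifiers (UMIs), where each UMI stands for a captured RNA molecule, and a cell cannot be traced to its sample or embryo. Cell names are running numbers without barcodes, so barcodes shared between libraries could not be counted.

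In the absence of ligand, Patched holds Smoothened inactive, Sufu retains the Gli proteins, and Gli3 is largely cut into a transcriptional repressor. When Sonic hedgehog binds Patched together with Gas1, Boc or Cdon, Smoothened enters the primary cilium, Gli2 and Gli3 stay full length and act as activators, and Gli1, Ptch1 and Hhip are induced as targets. In the telencephalon Sonic hedgehog comes from ventral tissue and Gli3 repressor is needed for dorsal identity, while transcription of Gas1, Boc and Cdon is known to be lowered where the signal is strong. The activator arm is taken here as Gli1, Gli2, Smo, Gas1, Boc and Cdon (6 genes), and the repressor arm as Gli3, Sufu, Ptch1 and Hhip (4 genes). Counts of RNA do not separate the activator and repressor forms of a Gli protein.

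The genes lie on 8 chromosomes of the mm10 build in the GENCODE annotation, and all are protein coding. Gli3 lies at chr13:15463235-15730026 on the plus strand, Gli2 at chr1:118834132-119053619 on the minus strand and Gli1 at chr10:127329882-127341974 on the minus strand. Gas1, at chr13:60174405-60177365 on the minus strand, and Ptch1, at chr13:63508328-63573598 on the minus strand, share chromosome 13 with Gli3. Boc lies at chr16:44485049-44558897 on the minus strand, Cdon at chr9:35421128-35507652 on the plus strand and Hhip at chr8:79965851-80058006 on the minus strand. Smo lies at chr6:29735503-29761365 and Sufu at chr19:46396896-46488804, both on the plus strand. Gli1 overlaps Arhgap9 on the opposite strand, and Gas1 overlaps Gm48488 on the opposite strand. Ptch1 overlaps A930032L01Rik on the same strand. Whether the counting used strand is not given in the sources used here, so reads from these overlaps cannot be assigned with certainty.

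Promoters are shown for the co-receptor gene with the largest dorsal to ventral ratio and for the pair of Gli factors whose relative level is compared below. Each runs 5′ to 3′ on the gene's strand from 250 bases before to 50 bases after the start in RefSeq (GRCm38.p6, the assembly of mm10). Capitals mark the GC box, GGGCGG on either strand. The windows are chr13:60177486-60177785 for Gas1 (minus strand), chr1:119053570-119053869 for Gli2 (minus strand) and chr13:15463473-15463772 for Gli3 (plus strand).
Gas1: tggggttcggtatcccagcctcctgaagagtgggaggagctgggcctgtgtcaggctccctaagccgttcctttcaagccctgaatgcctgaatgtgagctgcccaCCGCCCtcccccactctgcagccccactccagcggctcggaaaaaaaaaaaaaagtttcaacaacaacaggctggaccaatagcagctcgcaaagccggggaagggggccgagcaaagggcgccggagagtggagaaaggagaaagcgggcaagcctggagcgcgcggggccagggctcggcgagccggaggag
Gli2: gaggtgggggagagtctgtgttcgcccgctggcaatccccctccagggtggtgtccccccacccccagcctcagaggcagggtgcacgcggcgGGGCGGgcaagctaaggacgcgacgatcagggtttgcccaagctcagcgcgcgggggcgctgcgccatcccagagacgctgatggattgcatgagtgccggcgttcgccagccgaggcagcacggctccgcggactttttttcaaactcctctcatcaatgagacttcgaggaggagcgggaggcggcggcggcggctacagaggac
Gli3: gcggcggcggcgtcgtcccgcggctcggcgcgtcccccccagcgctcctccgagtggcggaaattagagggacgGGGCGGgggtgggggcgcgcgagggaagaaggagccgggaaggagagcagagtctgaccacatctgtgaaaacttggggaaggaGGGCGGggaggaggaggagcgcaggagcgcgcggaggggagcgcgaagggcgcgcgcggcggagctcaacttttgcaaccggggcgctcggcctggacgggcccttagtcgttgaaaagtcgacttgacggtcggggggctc
The Gas1 window had 62.3% G and C with 17 CpG pairs and 1 GC box, the Gli2 window 67.3% with 28 CpG pairs and 1 GC box, and the Gli3 window 71.0% with 39 CpG pairs and 2 GC boxes. RefSeq places the Gas1 start upstream of the GENCODE gene model. It places the Gli3 start downstream of the GENCODE one, so the whole Gli3 window lies inside the gene. Of the 10 genes, 8 have an entry in the table, and Boc and Gli1 are only named. The Gli binding letters GACCACCCA and the homeodomain letters TAATTA, on either strand, were in 0 of these 8 windows. Among them the windows of Cdon (chr9:35451826-35452125) and Ptch1 (chr13:63565686-63565985) also lie inside their GENCODE genes, away from the GENCODE start. Among all 32851 promoters of the same length, 0.253% held the Gli letters, 5.29% the homeodomain letters and 35.7% a GC box.

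Cells were clustered with the 10 genes and all other pathway genes kept out of the features, and classes were named from marker lists with the ending "-like". Radial glia-like cells (944 cells, median 3364 UMIs) stand for mainly dorsal progenitors and ganglionic eminence progenitor-like cells (358 cells, median 3008.5 UMIs) for ventral ones. Intermediate progenitor-like cells (979), migrating excitatory neuron-like cells (592), excitatory neuron-like cells of 3 clusters (1308) and ventral neuron-like cells, made of interneuron-like and striatal neuron-like clusters (760), complete the main classes. The matrix splits into a first run of 3651 cells and a second run of 2122 cells that the labels do not name, and only 16 ganglionic eminence progenitor-like cells are in the second run. In all 22 clusters were found, of which 3 with 592 cells stayed unnamed. The dorsal factor Emx1, not among the naming markers, had 114 CPM in radial glia-like cells and 17.0 CPM in ganglionic eminence progenitor-like cells. The ventral factor Dlx2 had 96.7 CPM in radial glia-like cells and 1645 CPM in ganglionic eminence progenitor-like cells. Dlx2 is itself a marker that named the ganglionic eminence progenitor-like class, so its direction was fixed in advance. UMIs were summed per class and given as CPM, the UMIs of the gene scaled to 1000000 UMIs of the class, with an exact Poisson 95% interval. A gene with at least 50 UMIs over both classes was measured, and it was called higher or lower at a 1.5-fold difference. With a single pool there are no replicates to test over, so no p-values are given and intervals cover counting error only. Classes were drawn from the cells they describe, which makes each comparison a description.

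Most of the measured hedgehog genes had their highest level in radial glia-like cells. Over the 5773 cells used, with 21598246 UMIs, Cdon had 3685 UMIs, Gli3 3142, Gas1 2458, Boc 1155, Sufu 837, Gli2 723 and Smo 536. These 7 genes were measured in most comparisons. The 3 classical targets of the pathway had few UMIs, 55 for Gli1, 20 for Hhip and 7 for Ptch1, the receptor itself. Whether the low count of Ptch1 comes from its gene model or from capture near the 3′ end was not tested. Of the 7 measured genes 6 had their highest level in radial glia-like cells among the 9 classes of at least 50 cells, with intervals clear of the next class. Sufu was the exception, with its highest level in intermediate progenitor-like cells.

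**Figure D1:**
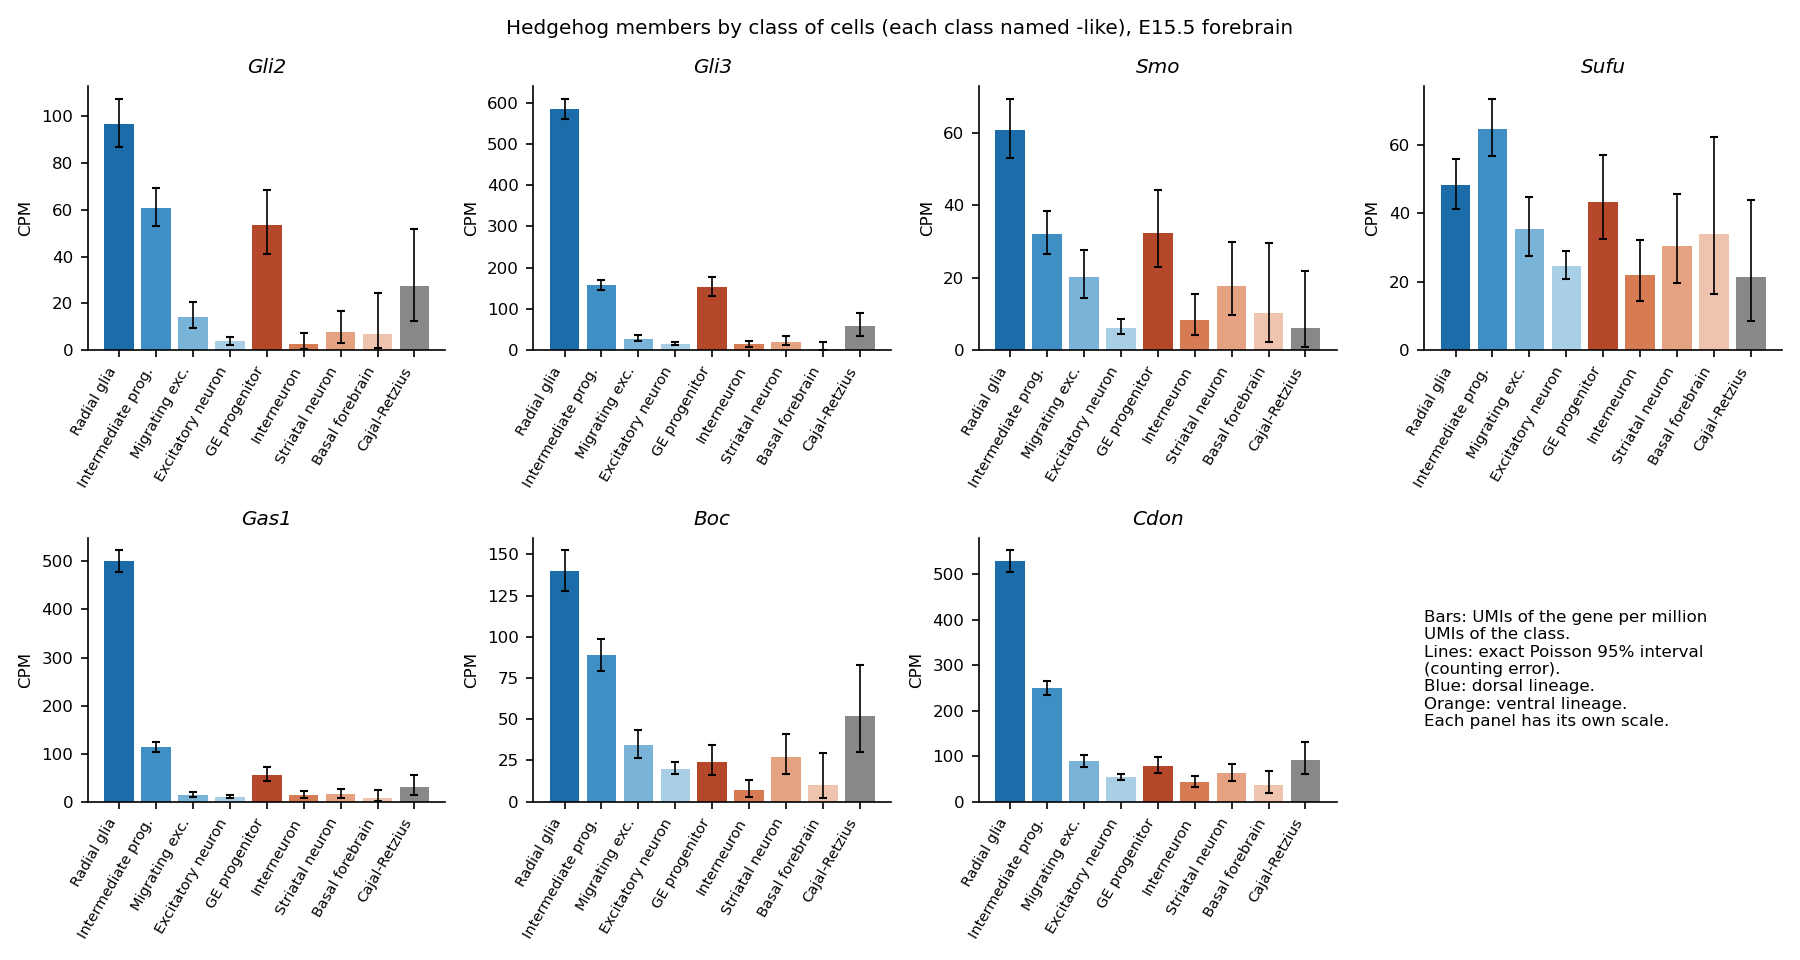
Level of the 7 measured genes (CPM, linear axis from 0, a scale for each gene) in 9 classes of cells, with exact Poisson 95% intervals as lines; blue bars are the dorsal lineage, orange bars the ventral one and grey the Cajal-Retzius cell-like class. Gli3, Gas1 and Cdon stand at 500.2 to 585 CPM in radial glia-like cells and at most at 152 CPM in the ventral classes, while Sufu varies between 21.3 and 64.7 CPM over all 9 classes.

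Radial glia-like cells were compared with ganglionic eminence progenitor-like cells to set dorsal against ventral progenitors. Of 7 measured genes 6 were called higher and 0 lower, where 20.7% of all 9387 genes measured were called higher and 10.6% lower. In the activator arm all 5 measured genes were higher. In the repressor arm Gli3 was higher and Sufu was not called. The median log2 ratio of the 7 genes was 1.94, against 0.08 over all genes measured.

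The co-receptors, which present hedgehog ligand to Patched, had the largest ratios. Gas1, a membrane-anchored co-receptor, had 500.2 CPM in radial glia-like cells (477 to 524) and 56.2 CPM in ganglionic eminence progenitor-like cells (43.4 to 71.5), 8.91-fold higher (6.97 to 11.6). Cdon, an immunoglobulin superfamily co-receptor, had 529 CPM (506 to 554) in radial glia-like cells and 79.1 CPM (63.9 to 96.9) in ganglionic eminence progenitor-like cells, 6.69-fold higher (5.43 to 8.33). Boc, its close relative, had 140 CPM (128 to 153) in radial glia-like cells and 23.8 CPM (15.8 to 34.4) in ganglionic eminence progenitor-like cells, 5.87-fold higher (4.01 to 8.92). The intervals of all 3 ratios lie above 4. Within the first run alone the log2 ratios were 3.25 for Gas1, 2.62 for Cdon, 2.71 for Boc, 1.82 for Gli3, 0.79 for Smo and 0.77 for Gli2, all past the limit of a call.

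The transducer and the cytoplasmic inhibitor differed less. Smo, the membrane protein that passes the signal into the cell, had 60.9 CPM in radial glia-like cells and 32.3 CPM in ganglionic eminence progenitor-like cells, 1.88-fold higher (1.33 to 2.73). Sufu, which retains the Gli proteins in the cytoplasm, had 48.2 CPM in radial glia-like cells and 43.4 CPM in ganglionic eminence progenitor-like cells, a ratio of 1.11 (0.81 to 1.55) that was not called.

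Among the Gli factors Gli3 stood out. It had 585 CPM in radial glia-like cells (560 to 610) and 152 CPM in ganglionic eminence progenitor-like cells (131 to 176), 3.84-fold higher (3.30 to 4.50). Gli2, the main activator at the start of a response, had 96.9 CPM in radial glia-like cells and 53.6 CPM in ganglionic eminence progenitor-like cells, 1.81-fold higher (1.38 to 2.40). Gli1, an activator that is itself a target, had 39 UMIs in radial glia-like cells (10.8 CPM, 7.68 to 14.8) and 4 UMIs in ganglionic eminence progenitor-like cells (3.40 CPM, 0.93 to 8.71), too few to be measured. Radial glia-like cells held 70.9% of all Gli1 UMIs, in 34 of their 944 cells. Ptch1 had 2 UMIs in radial glia-like cells and 0 in ganglionic eminence progenitor-like cells, where the interval of a count of 0 reaches 3.14 CPM. Hhip, a decoy for the ligand, had 10 UMIs in radial glia-like cells and 4 in ganglionic eminence progenitor-like cells.

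Summed over its genes, the activator arm had 1338 CPM in radial glia-like cells (1300 to 1376) and 248 CPM in ganglionic eminence progenitor-like cells (221 to 279). Without Cdon, its leading gene, the sums were 809 and 169 CPM in the same order of classes. The repressor arm had 636 CPM in radial glia-like cells (611 to 663) and 199 CPM in ganglionic eminence progenitor-like cells (174 to 226). Without Gli3 it had 51.5 and 46.8 CPM in that order, nearly all of it Sufu. Both arms were therefore higher in the radial glia-like class, and in the repressor arm this rests on Gli3.

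**Figure D2:**
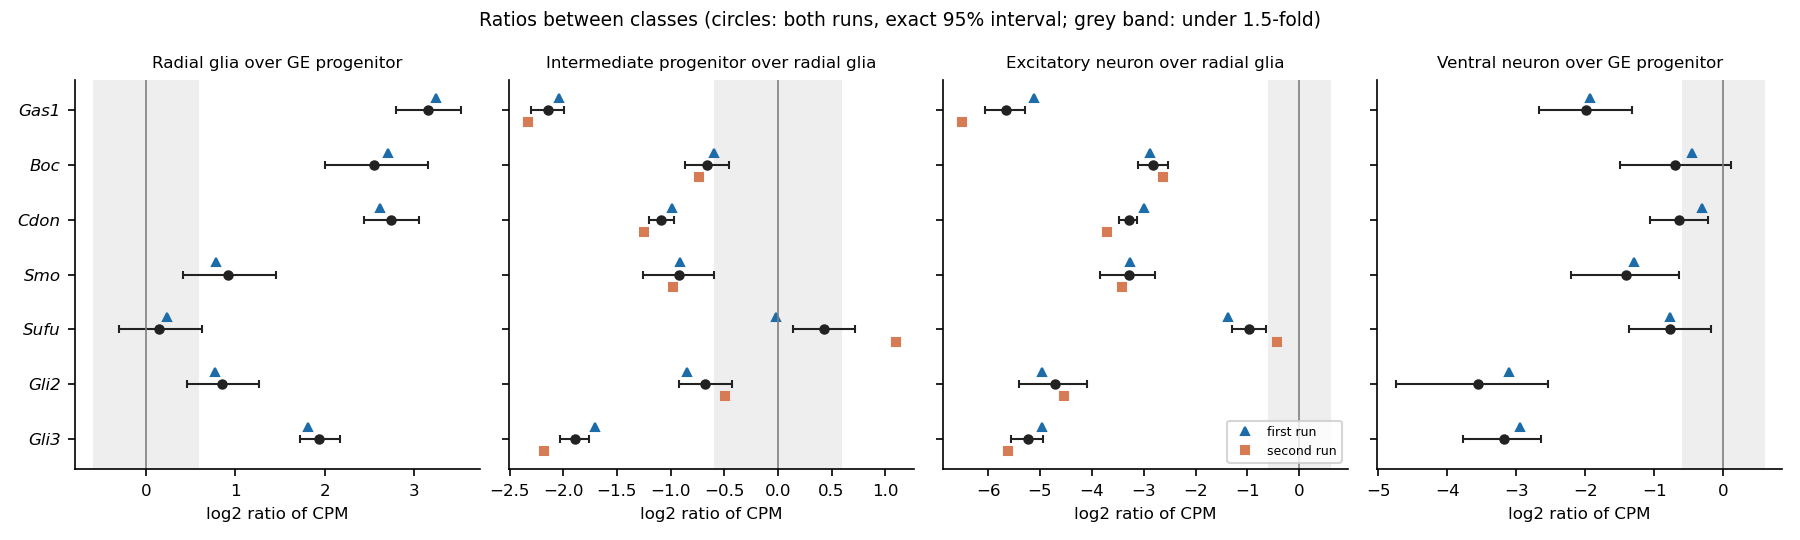
Log2 ratios of CPM for the 7 measured genes in 4 comparisons, with circles for both runs of cells (exact 95% interval), a grey band for differences under 1.5-fold, triangles for the first run and squares for the second run; second-run values are left out where ganglionic eminence progenitor-like cells (16 in that run) enter. Co-receptor and Gli3 ratios are the largest in radial glia-like over ganglionic eminence progenitor-like cells, Gli2 has the largest in ventral neuron-like over ganglionic eminence progenitor-like cells, and Sufu lies nearest to 0 or opposite to the other genes in both progenitor comparisons.

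The ganglionic eminence progenitor-like cluster also differed from the radial glia-like clusters in apical state. Of the 10 genes of an apical progenitor list (genes of ventricular stem cells such as Slc1a3, a glutamate transporter), 9 were higher and 0 lower in radial glia-like cells, with a median log2 ratio of 2.02. The median cell gave 1.04% of its UMIs to this list in the radial glia-like class and 0.237% in the ganglionic eminence progenitor-like class, where 1 of 358 cells reached the radial glia-like median. All genes of this list but Sox2 and Nes were also markers used to name the radial glia-like class. A difference in this direction was therefore largely fixed in advance. In these clusters apical state and region cannot be told apart.

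Dorsal and ventral cells were therefore also separated within the radial glia-like class, by a rule chosen after the first values were seen. A cell was dorsal-gated with at least 2 UMIs over Emx1, Emx2, Neurog2 and Eomes and 0 over Gsx1, Gsx2, Olig1, Olig2, Nkx2-1, Dlx1 and Dlx2, and ventral-gated in the opposite case. This gave 319 dorsal-gated cells (median 3904 UMIs) and 75 ventral-gated cells (median 3585 UMIs), with 550 in neither gate. On the apical list 1 of 10 genes, Hes1, was higher and 1, Fabp7, was lower between the gates, with a median log2 ratio of -0.03.

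Of the 7 measured genes 3 were called higher in dorsal-gated cells and 0 lower, where 12.7% of all 6701 genes measured were called higher and 8.76% lower. All 3 were co-receptors. Gas1 had 653 CPM in dorsal-gated cells and 191 CPM in ventral-gated cells, 3.42-fold higher (2.62 to 4.54). Cdon had 666 CPM in dorsal-gated cells and 217 CPM in ventral-gated cells, 3.06-fold higher (2.39 to 3.997). Boc had 161 CPM in dorsal-gated cells and 85.6 CPM in ventral-gated cells, 1.88-fold higher (1.25 to 2.94). Without the second run, which holds 7 ventral-gated cells, the log2 ratios were 1.95 for Gas1, 1.61 for Cdon and 1.13 for Boc.

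Gli3 had 638 CPM in dorsal-gated cells and 428 CPM in ventral-gated cells, a ratio of 1.49 (1.24 to 1.80) just under the 1.5-fold limit. Its level in ventral-gated radial glia-like cells was 2.81-fold higher (2.23 to 3.54) than in ganglionic eminence progenitor-like cells. Gli2 (1.45, 0.95 to 2.30), Smo (1.24, 0.73 to 2.22) and Sufu (1.04, 0.59 to 1.95) had intervals that include 1. Gli1 had 7 UMIs in dorsal-gated cells, 3 in ventral-gated cells and 29 in the cells of neither gate, and Hhip had 2, 3 and 5 in the same groups. With ventral factors other than Dlx1 and Dlx2, which left 34 ventral-gated cells, 6 genes were called higher and 0 lower (background 21.9% higher and 12.7% lower), Gli3 among them at 1.82-fold (1.38 to 2.44) and Gas1 at 7.57-fold (4.31 to 14.7). There Gli2 was 3.38-fold higher (1.42 to 10.5) and Sufu 1.95-fold (0.74 to 7.33), on 5 and 4 UMIs in ventral-gated cells. With a gate of 1 UMI (459 and 120 cells) 5 were called higher and 0 lower (background 11.8% higher and 7.23% lower), and Boc, at 1.43-fold, was not among them.

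**Figure D3:**
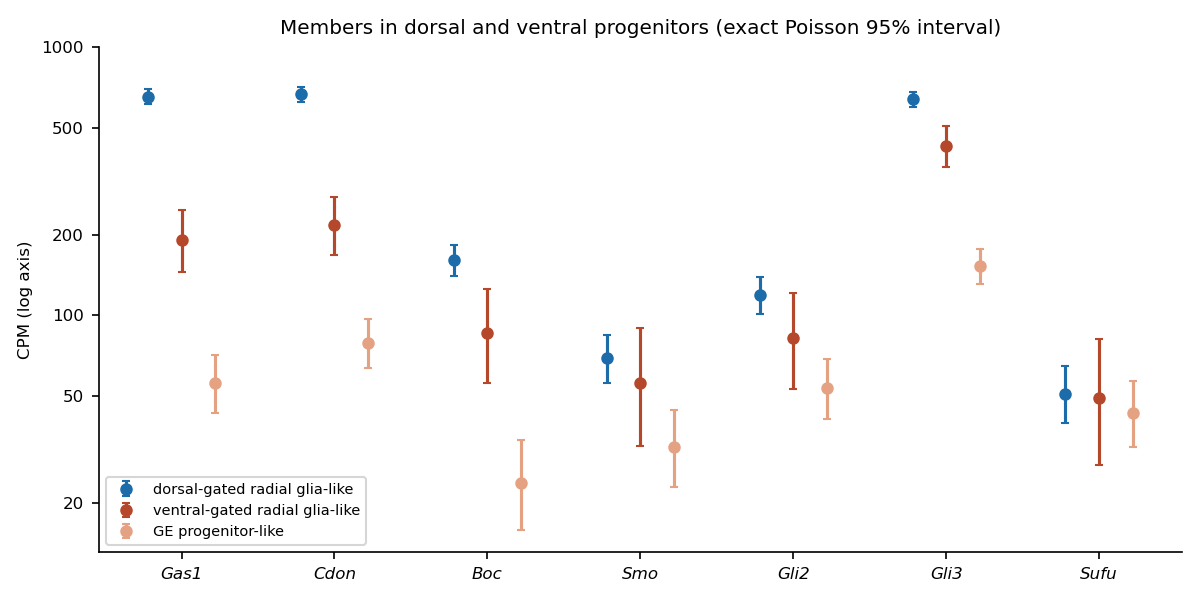
Level of the 7 measured genes (CPM, log axis) in dorsal-gated radial glia-like, ventral-gated radial glia-like and ganglionic eminence progenitor-like cells, with exact Poisson 95% intervals. Gas1 and Cdon have 3 separate levels, at 653 and 666 CPM in dorsal-gated cells, 191 and 217 CPM in ventral-gated cells and 56.2 and 79.1 CPM in ganglionic eminence progenitor-like cells, while Sufu stays between 43.4 and 51.1 CPM.

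Ventral-gated radial glia-like cells against ganglionic eminence progenitor-like cells again gave 6 of 7 genes higher and 0 lower (background 14.7% higher and 16.7% lower). Apical state moves with this comparison, since 9 of 10 apical genes were higher in the ventral-gated cells. Most of these genes also named the radial glia-like class, and the part of apical state in the result was not tested. Dorsal-gated cells against the same ganglionic eminence progenitor-like cells, a comparison that shares them, gave 6 of 7 higher and 0 lower (background 18.0% higher and 12.7% lower), with Gas1 at 11.6-fold (9.05 to 15.2).

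Ganglionic eminence progenitor-like cells were also split by Nkx2-1, the factor of the medial eminence that depends on Sonic hedgehog in this tissue, again after values were seen. The 87 cells with an Nkx2-1 UMI, all in the first run, had lower levels than the 271 others for 4 of 5 measured genes and higher levels for 0 (background 10.4% lower and 6.73% higher). Cdon had 5 UMIs (17.8 CPM) in the Nkx2-1 cells and 88 UMIs (98.5 CPM) in the others, 5.55-fold lower (2.29 to 17.5). Gas1 had 7 UMIs in the Nkx2-1 cells and 59 in the others, 2.66-fold lower (1.21 to 6.89). Gli3 had 88.8 CPM in the Nkx2-1 cells and 172 CPM in the others, 1.94-fold lower (1.27 to 3.09), and Gli2 was 1.89-fold lower with an interval that includes 1 (0.93 to 4.36). Sufu was not called (42.6 CPM in the Nkx2-1 cells and 43.6 CPM in the others). The dorsal factor Emx2 moved with this split, with 4 UMIs in the Nkx2-1 cells and 45 in the others, and its part in the result was not tested.

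From radial glia-like to intermediate progenitor-like cells, the Eomes-expressing daughters of dorsal radial glia, 6 of 7 measured genes were called lower and 0 higher, where 19.2% of all 10111 genes measured were called lower and 14.5% higher. Gas1 had 113 CPM in intermediate progenitor-like cells against 500.2 CPM in radial glia-like cells, 4.42-fold lower (3.97 to 4.93). Gli3 had 157 CPM in intermediate progenitor-like cells against 585 CPM in radial glia-like cells, 3.71-fold lower (3.39 to 4.08). Cdon was lower 2.12-fold, Smo 1.90-fold, Gli2 1.60-fold and Boc 1.58-fold, and all 6 intervals exclude 1.

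The 3 intermediate progenitor-like clusters were not alike. In the cluster led by Neurog2 and Eomes, the factors of new intermediate progenitors, Gli2 had 99.7 CPM and Boc 134 CPM, close to the 96.9 and 140 CPM of radial glia-like cells, while Gas1 had 140 CPM and Gli3 186 CPM. In the cluster led by Tac2 and Mfap4, with Neurod1 among its leading genes, Gli2 had 34.8 CPM, Boc 39.7 CPM, Gas1 23.2 CPM and Gli3 90.2 CPM. The third cluster, led by mitosis genes, had 47.8 CPM of Gli2, 91.7 CPM of Boc, 174 CPM of Gas1 and 195 CPM of Gli3. Gas1 and Gli3 were thus below their radial glia-like level in each of the 3 clusters, while the interval of Gli2 in the mitosis cluster (36.5 to 61.6) meets that in the cluster with Neurod1 (25.0 to 47.0).

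Sufu went the other way, with 64.7 CPM in intermediate progenitor-like cells (56.8 to 73.5) and 48.2 CPM in radial glia-like cells (41.3 to 55.9), a ratio of 1.34 (1.10 to 1.64) below the limit of a call. The runs differed here. In the first run Sufu had 52.8 CPM in intermediate progenitor-like cells and 53.5 CPM in radial glia-like cells, and in the second run 82.7 CPM in intermediate progenitor-like cells and 38.7 CPM in radial glia-like cells. Gli1 had 9 UMIs in intermediate progenitor-like cells against 39 in radial glia-like cells.

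The 2 clusters within the radial glia-like class, 1 of them led by mitosis genes, gave 0 of 7 measured genes higher and 0 lower (background 6.94% higher and 7.34% lower). Gli3 had 651 CPM in the 432 cells led by mitosis genes and 499.9 CPM in the 512 others, a ratio of 1.30 (1.19 to 1.42), and Gas1 had 562 CPM in the cells led by mitosis genes and 421 CPM in the others, a ratio of 1.33 (1.21 to 1.47). Both intervals exclude 1, and both ratios stay under the 1.5-fold limit.

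Neurons had low levels of these genes. All 7 measured genes were lower in excitatory neuron-like than in radial glia-like cells and 0 were higher, where 30.9% of all 10544 genes measured were called lower and 23.3% higher. Their median log2 ratio was -3.29, against -0.15 over all genes measured. Gas1 was 50.4-fold lower (38.9 to 66.4), with 9.93 CPM in excitatory neuron-like cells and 500.2 CPM in radial glia-like cells. Gli3 was 37.8-fold lower (30.7 to 47.1), with 15.5 CPM in excitatory neuron-like cells and 585 CPM in radial glia-like cells, and Gli2 was 26.2-fold lower (17.0 to 42.3). Cdon (9.80-fold), Smo (9.78-fold) and Boc (7.04-fold) had ratios between these and Sufu. Sufu was 1.96-fold lower (1.56 to 2.46), with 24.6 CPM in excitatory neuron-like cells. The runs gave log2 ratios of -5.12 and -6.51 for Gas1, -4.97 and -5.61 for Gli3, and -1.38 and -0.43 for Sufu, which was not called in the second run.

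Free RNA from lysed progenitors can give droplets some UMIs of progenitor genes, so the neuronal levels were set beside the apical list. The level of free RNA itself was not measured. Excitatory neuron-like cells kept 2.70 to 8.95% of the radial glia-like level of the 10 apical genes (median 4.48%). Gas1 stood at 1.99% (1.51 to 2.56), Gli3 at 2.65% (2.13 to 3.25) and Gli2 at 3.82% (2.39 to 5.78), below that median. Gas1 and Gli3 lay below each of the 10 apical genes, so the list gives no common level of free RNA. Whether the neuronal UMIs of these 3 genes come from expression or from free RNA was not tested. Cdon at 10.2% (9.12 to 11.4), Smo at 10.2% (7.20 to 14.1), Boc at 14.2% (11.8 to 17.0) and Sufu at 51.0% (43.1 to 59.97) stood above each of the 10 apical genes, although the intervals of Smo and Cdon overlap that of the highest, Ttyh1. Gli1 had 0 UMIs in excitatory neuron-like cells, with an interval that reaches 0.621 CPM.

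**Figure D4:**
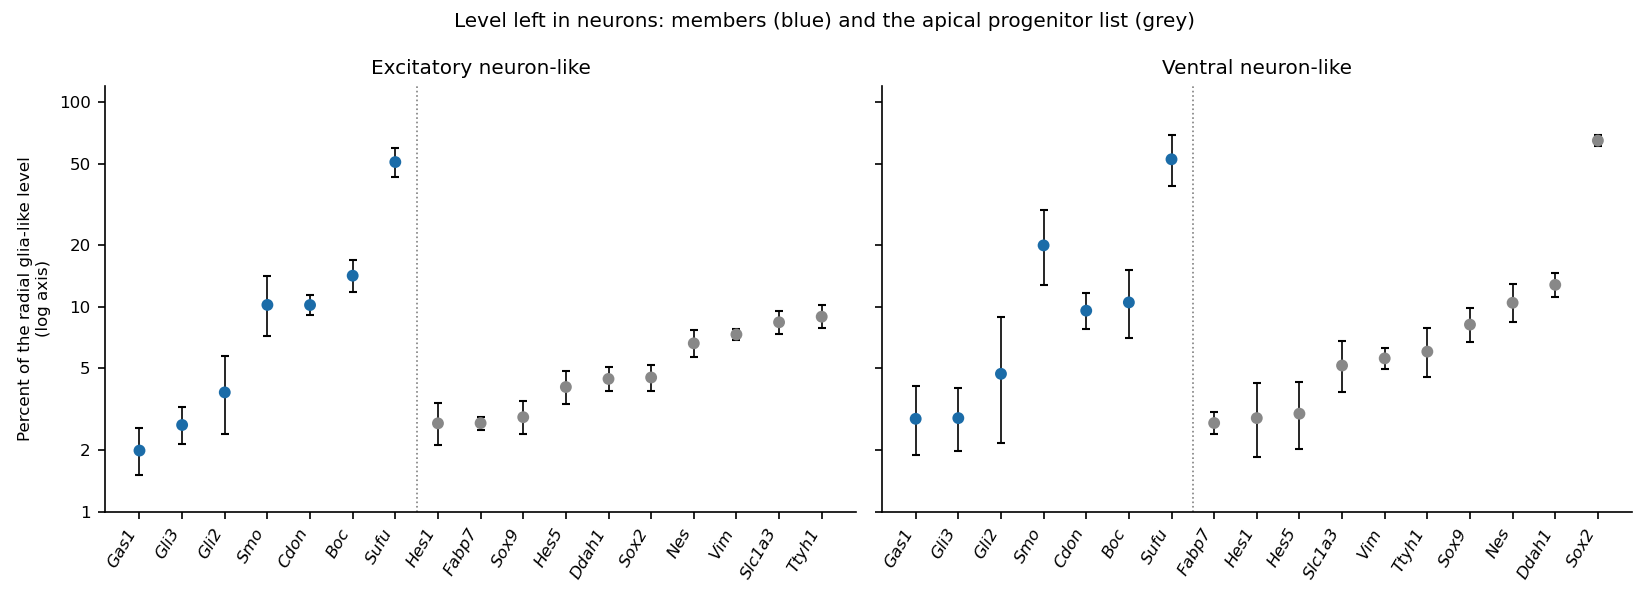
Level in excitatory neuron-like and ventral neuron-like cells as a percent of the radial glia-like level (log axis, exact Poisson 95% interval of the neuronal count) for the 7 measured genes (blue) and the 10 apical progenitor genes (grey). Gas1, Gli3 and Gli2 lie among the lowest grey points at 1.99 to 4.71%, and Sufu stands at 51.0 and 52.6%.

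Ventral neuron-like cells against ganglionic eminence progenitor-like cells also gave 7 of 7 genes lower and 0 higher (background 20.1% lower and 21.8% higher). Gli2 was 11.7-fold lower (5.81 to 26.9) and Gli3 9.10-fold lower (6.25 to 13.6), with 16.7 CPM of Gli3 in ventral neuron-like cells and 152 CPM in ganglionic eminence progenitor-like cells. Gas1 was 3.96-fold lower, Smo 2.66-fold, Sufu 1.71-fold, Boc 1.62-fold and Cdon 1.56-fold, and the interval of Boc (0.93 to 2.82) includes 1. In the first run alone Boc and Cdon had log2 ratios of -0.46 and -0.31, inside the limit. Ventral neuron-like cells kept 2.84% of the radial glia-like level of Gas1, 9.58% of that of Cdon and 10.5% of that of Boc. All 3 lie within the range of the 10 apical genes in these cells, 2.71 to 64.9% (median 5.82%), where Sox2 is the highest.

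Excitatory neuron-like and ventral neuron-like cells were close. Of 6 measured genes 0 were called higher and 1 lower in the excitatory class (background 12.8% higher and 9.79% lower). That gene was Smo, with 37 UMIs (6.23 CPM) in excitatory neuron-like cells and 24 UMIs (12.2 CPM) in ventral neuron-like cells, 1.95-fold lower (1.12 to 3.35). Gli3 had 15.5 CPM in excitatory neuron-like cells and 16.7 CPM in ventral neuron-like cells, Cdon 54.03 and 50.7 CPM, and Sufu 24.6 and 25.4 CPM in the same order of classes.

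Migrating excitatory neuron-like cells, the stage after intermediate progenitors, already had 7 of 7 genes lower than intermediate progenitor-like cells and 0 higher (background 17.6% lower and 7.44% higher). Gas1 was 8.29-fold lower (5.62 to 12.7) and Gli3 5.67-fold lower (4.29 to 7.61), and Smo had the smallest ratio, 1.59-fold lower (1.10 to 2.33). Smo kept 33.2% of its radial glia-like level in migrating cells, Boc 24.6% and Sufu 73.4%, against 4.75% for Gli3.

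The relative level of the Gli factors was followed as the share of Gli3 in the UMIs of Gli2 plus Gli3. Capture differs between the 2 RNAs, so the share was compared between classes only. It was 85.8% in radial glia-like cells (Clopper-Pearson 95% interval 84.3 to 87.1) and 74.0% in ganglionic eminence progenitor-like cells (68.0 to 79.4). It was 72.2% in intermediate progenitor-like cells (69.0 to 75.3). Both of these classes thus lie below radial glia-like cells with intervals that do not meet. The gates within radial glia-like cells did not differ in it, with 84.3% in dorsal-gated cells (81.9 to 86.4) and 83.9% in ventral-gated cells (77.1 to 89.3). In the first run the share was 75.4% in intermediate progenitor-like cells and 84.8% in radial glia-like cells, and in the second run 67.8% in intermediate progenitor-like cells and 87.1% in radial glia-like cells. It was 66.3% in migrating excitatory neuron-like cells (55.1 to 76.3), also clear of radial glia-like cells, though in the second run alone it was 77.5% (61.5 to 89.2), which meets the 87.1% of radial glia-like cells in that run. In the other neurons it was 80.7% in excitatory neuron-like cells (72.3 to 87.5) and 78.6% in ventral neuron-like cells (63.2 to 89.7). Whether the Gli UMIs of migrating and other neurons come from expression or from free RNA was not tested, so these shares may not describe the neurons themselves.

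**Figure D5:**
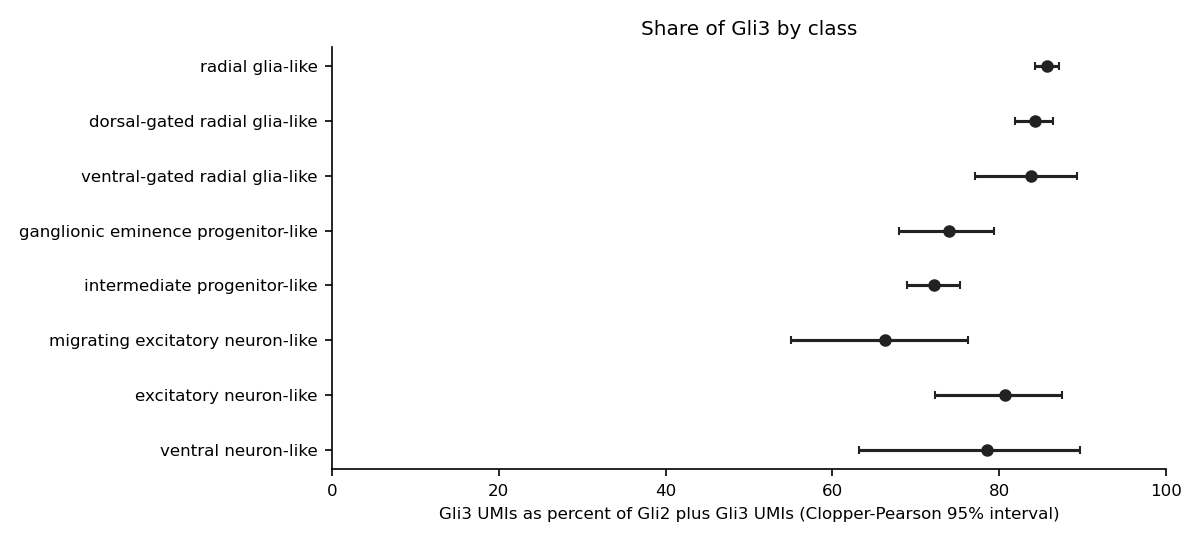
Gli3 UMIs as a percent of Gli2 plus Gli3 UMIs in 8 groups of cells (points, with Clopper-Pearson 95% intervals). Radial glia-like cells and both gates lie at 83.9 to 85.8%, and ganglionic eminence progenitor-like and intermediate progenitor-like cells at 74.0 and 72.2%.

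Detection was also counted per cell. After each cell was thinned to 1000 UMIs, Cdon was found in 34.4% of radial glia-like cells (31.4 to 37.6), Gli3 in 33.7% (30.7 to 36.8), Gas1 in 29.8% (26.9 to 32.8), Boc in 12.4%, Gli2 in 7.52%, Smo in 5.93%, Sufu in 4.03% and Gli1 in 1.17%. In ganglionic eminence progenitor-like cells Gli3 was found in 10.3% (7.38 to 13.96), Cdon in 7.54% and Gas1 in 5.59%. Excitatory neuron-like cells, thinned alike, showed Gli3 in 1.15% and Gas1 in 1.07%. Before thinning their median depth was 4408.5 UMIs, against 3364 UMIs in radial glia-like cells. Without thinning, Gli3 was found in 65.3% of radial glia-like cells. At least 2 of the 10 genes were found in 39.3% of thinned radial glia-like cells, 12.6% of intermediate progenitor-like cells, 6.15% of ganglionic eminence progenitor-like cells and 0.535% of excitatory neuron-like cells, and in 0 of 17 microglia-like cells.

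Within thinned radial glia-like cells, Gas1 was found in 137 of 325 cells with Cdon (42.2%, 36.7 to 47.7) and in 144 of 619 cells without it (23.3%, 19.99 to 26.8). These intervals do not meet, though they treat the cells of 1 pool as independent. Both genes were also higher in dorsal-gated than in ventral-gated cells of this class, Gas1 3.42-fold and Cdon 3.06-fold. The part of region in their joint detection was not tested. Gli3 was found in 37.7% of cells with Gas1 (32.0 to 43.7) and 32.0% of cells without it (28.4 to 35.7). Cdon was found in 35.9% of cells with Boc (27.2 to 45.3) and 34.2% of cells without it (31.0 to 37.6). Gli3 was found in 29.6% of cells with Gli2 (19.3 to 41.6) and 34.0% of cells without it (30.9 to 37.3). In these last 3 pairs the intervals overlap.

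The genes most like each of the 7 measured members across 11 named classes of at least 50 cells were ranked among 9701 genes by Pearson's r of log2(CPM + 10). The classes share the pool and its free RNA, and r is a description. Gli3 was most like Dock1 (r = 0.98), Vim (0.98), the intermediate filament gene of radial glia, and Gpx8 (0.97). Gas1 was most like Zfp36l1 (0.99), Wwtr1 (0.98), a co-activator of Hippo signalling, and Lamb2 (0.98). Cdon was most like Pbxip1, Dusp16 and Ptx3 (0.97 to 0.98), and Boc like Lamc1 (0.96), Pde1b (0.95) and Dusp16 (0.94). Gli2 was most like Srebf1, Nme4 and Dbi (0.97 to 0.98), Smo like Prom1, Tcf7l2 and Rplp2 (0.97), and Sufu like Myo6 (0.94), Myo10 (0.94) and Dennd5a (0.92). Among the members themselves Gas1 and Cdon had r = 0.96, and Sufu and Boc had r = 0.63.

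The ligands were rare. Shh, the gene of Sonic hedgehog, had 38 UMIs in all, of which 15 lay in 10 of 92 basal forebrain neuron-like cells (50.9 CPM, 28.5 to 83.9) and 16 in 2 radial glia-like cells, 14 of them in 1 cell. Ganglionic eminence progenitor-like cells had 2 Shh UMIs. Ihh had 7 UMIs over all cells. Dhh was not in the matrix, and Foxf1 was not analysed here.

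The other genes of the pathway were taken from 6 lists of 55 genes, of which 52 were in the matrix. Each list's called gene with the largest ratio in each direction is named, and further names were chosen after their values were seen. Of these genes 40 were measured between radial glia-like and ganglionic eminence progenitor-like cells, and 14 were higher and 2 lower, where 20.7% of all genes measured were called higher and 10.6% lower. Of 16 measured cilium and transport genes 6 were higher and 1 lower. The higher ones include Tulp3, which carries receptors into the cilium (57.1 CPM in radial glia-like cells and 26.4 CPM in ganglionic eminence progenitor-like cells), and the lower one is Ttbk2, a kinase that starts cilium growth (54.8 CPM in radial glia-like cells and 101 CPM in ganglionic eminence progenitor-like cells). Of 3 measured other membrane proteins Evc and Evc2, partners of Smoothened in the cilium, were higher. Of 5 measured genes commonly used as targets 3 were higher, led by Sfrp1, an inhibitor of Wnt signalling (974 CPM in radial glia-like cells and 214 CPM in ganglionic eminence progenitor-like cells), and Foxm1, a mitotic factor, was lower. Of 4 repressor partners Ski and Zic2 were higher, and of 11 kinases and degradation genes 1, Stk36, was higher.

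Between the gates of radial glia-like cells 27 pathway genes were measured, 5 were higher in dorsal-gated cells and 2 lower (background 12.7% higher and 8.76% lower). Of these 5, 3 were repressor partners. Zic2, a zinc finger factor of the dorsal midline, had 68 UMIs in dorsal-gated cells and 3 in ventral-gated cells. Ski, a co-repressor that binds Gli3, had 183 CPM in dorsal-gated cells and 75.7 CPM in ventral-gated cells, and Itch, a ubiquitin ligase, had 52.6 and 32.9 CPM in the same order. The lower genes were Ccnd1, the cyclin D1 gene, with 209.6 CPM in dorsal-gated cells and 547 CPM in ventral-gated cells, and Kif3a, a motor of ciliary transport, with 69.4 CPM in dorsal-gated cells and 122 CPM in ventral-gated cells. Of the targets, Bcl2 and Foxm1 were higher in dorsal-gated cells. With the gate of 1 UMI 4 of 33 were higher and 3 lower (background 11.8% higher and 7.23% lower), Bcl2, Foxm1 and Zic2 (49.7 CPM in dorsal-gated cells and 35.2 CPM in ventral-gated cells) were not called, and Ski, Itch, Ccnd1 and Kif3a kept their calls.

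Between intermediate progenitor-like and radial glia-like cells 44 pathway genes were measured, 4 were higher and 10 lower, against 14.5% higher and 19.2% lower over all genes measured. Of 5 targets 4 were lower, led by Sfrp1 (339 CPM in intermediate progenitor-like cells and 974 CPM in radial glia-like cells). Evc had 5.71 CPM in intermediate progenitor-like cells and 24.9 CPM in radial glia-like cells, Ift80 32.6 and 66.5 CPM, and Ski 67.2 and 156 CPM in that order. Higher were Stk36 (61.2 CPM in intermediate progenitor-like cells and 16.6 CPM in radial glia-like cells), Ttbk2, Btrc, a subunit of the ligase that marks Gli3 for cutting, and Scube1.

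Between excitatory neuron-like and radial glia-like cells 8 of 44 pathway genes were higher and 14 lower, shares near the 23.3% higher and 30.9% lower over all genes measured. Kif7, a ciliary regulator of Gli proteins, had 4.21 CPM in excitatory neuron-like cells and 24.9 CPM in radial glia-like cells, and 6 of 18 cilium and transport genes were lower and 2 higher. Ccnd1 had 11.4 CPM in excitatory neuron-like cells and 261 CPM in radial glia-like cells, Evc 1.51 and 24.9 CPM, and Zic2 4.71 and 47.4 CPM in that order. Kif3a (186 CPM in excitatory neuron-like cells and 79.2 CPM in radial glia-like cells), Btrc (46.3 and 16.6 CPM) and Scube1, a secreted partner of hedgehog release (72.4 and 16.3 CPM), were higher. Of 12 measured kinases and Gli degradation genes, 4 were higher and 0 lower in excitatory neuron-like cells.

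In ventral neuron-like cells against ganglionic eminence progenitor-like cells 8 of 32 pathway genes were higher and 5 lower, shares near the 21.8% higher and 20.1% lower over all genes measured. Scube1 had 55.3 CPM in ventral neuron-like cells and 11.1 CPM in ganglionic eminence progenitor-like cells, Kif3a 194 and 80.0 CPM, Prkacb, a catalytic subunit of protein kinase A, 302 and 157 CPM, and Ski 147 and 94.5 CPM in that order. Foxm1 (4.56 CPM in ventral neuron-like cells and 144 CPM in ganglionic eminence progenitor-like cells) and Ift80 (19.8 and 55.3 CPM) were lower. Between excitatory neuron-like and ventral neuron-like cells 8 of 39 were higher and 2 lower (background 12.8% higher and 9.79% lower), with Stk36 (34.2 CPM in excitatory neuron-like cells and 11.7 CPM in ventral neuron-like cells), Rab23 and Mycn leading their lists among the higher genes and Disp1 and Numb as the lower ones.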

How the data were processed

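Deposited was 1 matrix of counts of UMIs per gene and cell, not normalized, per the file headers and values. The submitters' processing notes name the mm10 build. The aligner, counter and gene models were not given in the sources used here. All 16 samples are pooled in that matrix, and 0 per-sample columns were left unused.

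Of 5777 cells, 4 with over 10% globin UMIs were set apart. The median cell had 3258 UMIs (1111 to 17398). The matrix held 0 mitochondrial genes. The 2 runs (3651 and 2122 cells, with 4 cells between them; medians 3162 and 3412 UMIs) were found from where Y-linked UMIs fall in the cell order and from 11 genes listed after the alphabetical order. The labels do not name them.

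Cells were scaled to 10000 UMIs and log-transformed, and 2000 features without hedgehog genes gave 30 principal components, 15 neighbours and Leiden clusters at resolution 1 (Python 3.11.15, scanpy 1.11.5, leidenalg 0.10.2, scipy 1.17.1). Of 178 markers in 21 lists, 164 were in the matrix. A cluster was named with a mean log2 fold of its markers of at least 0.5 and at least 3 markers raised 1.5-fold with 10 UMIs. Doublets were kept, and removal of the 5% of cells with the highest scores was an alternative.

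UMIs were summed per class, with exact Poisson and conditional binomial 95% intervals of counting error. With 1 pool there is no replicate and no p-value. The ratios were tested on simulated data. All 10 members are named. In each pathway list the called gene with the largest ratio in each direction is named, and for each member with at least 200 UMIs the 3 genes with the highest r. Some list genes that the rule names are not reported here. The members and lists were chosen with earlier results of these data known. The regional gate, the mitosis split and the Nkx2-1 split were chosen after values were seen. Alternatives changed the clustering resolution, features, components, naming, depth limit, doublets, fold limit, UMI minimum, weighting of cells and run.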

Additional observations from a re-analysis of the deposited data

How the results depend on the processing

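No paired analysis was possible because the 16 samples form 1 group and cells carry no sample. Between radial glia-like and ganglionic eminence progenitor-like cells the count of 6 higher and 0 lower stayed within 1.5 times in each alternative with a value. Even so, Gli2 (log2 ratio 0.85) and Smo (0.91) lost their calls at a 2-fold limit, and Smo (0.38) lost its call in the second run. Over all comparisons 510 of 597 member ratios moved by less than their counting interval, 86 moved more and 1 that had been called changed sign, Boc in intermediate progenitor-like over radial glia-like cells, at a log2 ratio of 0.17 among cells with a high apical share (20 intermediate progenitor-like cells). Part of the 510 was fixed in advance. A ratio could not move where only the fold limit or UMI minimum changed, or where both classes of a comparison kept the same cells. Ratios that were not called also crossed 0, among them Smo between the gates (down to -0.17). Sufu in radial glia-like over ganglionic eminence progenitor-like cells went down to -0.55 in the second run. That sign comes from a floor of 3 counts set in place of 0. In that run Sufu had 50 UMIs in radial glia-like cells and 0 in ganglionic eminence progenitor-like cells. Between intermediate progenitor-like and radial glia-like cells 2 members were lower with a high apical share, and 3 were lower with 1000 features, with cells of at least 2000 UMIs or at a 2-fold limit, against 6, while in the second run 1 was higher (Sufu). Between ventral neuron-like and ganglionic eminence progenitor-like cells 4 members were lower with clusters drawn on UMIs other than those measured or at a 2-fold limit, against 7. In the second run (16 progenitors) no member reached the minimum of 50 UMIs in this comparison, so none could be called. Between excitatory neuron-like and ventral neuron-like cells, against 0 higher and 1 lower, 1 was higher at resolution 0.5, with 15 components, with hedgehog genes as features, without doublets, with cells weighted equally or with globin-rich cells kept, and 2 in the second run. In the same comparison 0 were lower with 15 components, at a 2-fold limit or in either run alone, and 2 without doublets, with cells of at least 2000 UMIs or with each cluster named by its best class. In each run alone Smo, the 1 lower gene, fell short of the minimum of 50 UMIs and could not be called. Its log2 ratios there were -1.17 and -0.67. In the settings where Smo was measured its log2 ratio lay between -1.24 and -0.76. Between the gates 5 were higher at 1 UMI or at resolution 0.5 and 6 without Dlx1 and Dlx2, against 3. At a 2-fold limit Boc (log2 ratio 0.91) lost its call between the gates. The share of radial glia-like cells with Gli3 was 65.3% unthinned, against 33.7%. High apical share left 1 ganglionic eminence progenitor-like cell and no value for that class, and the gate gave none in the second run (7 ventral-gated cells) or at resolution 2 (9). Gates, globin and best-class naming were added after seeing the data. The cause of these shifts was not tested. Gli1, Hhip and Ptch1 were under the minimum of 50 UMIs in all comparisons, and the part of depth was not tested.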

Other observations

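UMIs of hedgehog genes in small classes were set beside the apical list, as for neurons. In 76 Cajal-Retzius cell-like cells, early neurons of the cortical surface, the 10 apical genes stood at 0.62 to 23.9% of their radial glia-like level (median 10.2%). Boc stood at 37.0% there (21.5 to 59.2), with 51.7 CPM, and Sufu at 44.2% (17.8 to 91.0), above that range with intervals that reach into it, while Cdon (17.2%) and Gli3 (9.88%) lay within the range of the apical genes. In 29 meningeal fibroblast-like cells, connective cells of the brain's covering, the apical genes stood at 2.81 to 81.9% (median 14.2%). Smo stood at 104% (50.1 to 192) with 10 UMIs and Sufu at 106% (45.6 to 208) with 8 UMIs, intervals that reach into that range, and Gas1 (17.8%) and Gli3 (14.2%) lay within it. Single apical genes differed widely there, with Ttyh1 at 2.81%, Fabp7 at 3.72%, Slc1a3 at 64.9%, Vim at 67.4% and Hes1 at 81.9%. So wide a range cannot be taken as a level of free RNA, and expression of hedgehog genes in these fibroblast-like cells was not tested.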
